A study of Mus musculus with 3 samples.

Results

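Endoplasmic reticulum associated degradation (ERAD) was described through 9 genes, Syvn1, Sel1l, Derl1, Derl2, Derl3, Edem1, Edem2, Os9 and Herpud1, which were chosen by symbol and were all found among the 24467 gene symbols of the count tables. Their transcripts were measured by sequencing of polyadenylated RNA in 3 libraries of 5TGM1.BRE, a mouse multiple myeloma line that resists the proteasome inhibitor bortezomib. These cells had engrafted in the bone marrow of C57BL/KaLwRij mice, were recovered from it and then kept in 10 nM bortezomib, and all 3 samples had been without drug for at least 72 h when RNA was taken. The libraries formed 1 group of 1 cell line and the parental line was not analysed here, so levels are described and no change with resistance was measured.

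ERAD removes proteins that fail to fold in the endoplasmic reticulum. Mannose trimming by EDEM proteins marks a misfolded glycoprotein, lectins such as OS9 bind the trimmed glycan, and a membrane complex built on the ubiquitin ligase SYVN1 (also called HRD1), its partner SEL1L and the derlins moves the protein to the cytosol. There it is tagged with ubiquitin and degraded by the proteasome, the complex that bortezomib inhibits. Plasma cells and myeloma cells make large amounts of antibody, and the unfolded protein response, through the factors XBP1 and ATF6, is known to induce many ERAD genes.

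The promoters of Syvn1, Herpud1 and Derl3 are shown first, since they are the members whose window holds a complete stress element of this response and they include both well expressed genes and the 1 gene near the detection limit. Each sequence is the 250 bases before the RefSeq transcription start on GRCm38.p6, read 5′ to 3′ on the gene's strand. Capitals mark CCAAT and CCACG, the end parts of the elements, on either strand (ATTGG and CGTGG on the opposite strand). Syvn1 lies at chr19:6046326-6046575, plus strand, Herpud1 at chr8:94386179-94386428, plus strand, and Derl3 at chr10:75893148-75893397, plus strand.
Syvn1: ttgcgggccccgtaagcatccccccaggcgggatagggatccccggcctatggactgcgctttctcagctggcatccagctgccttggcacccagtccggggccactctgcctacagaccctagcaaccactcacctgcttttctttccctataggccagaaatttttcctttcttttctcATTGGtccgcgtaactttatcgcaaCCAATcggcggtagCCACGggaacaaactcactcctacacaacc
Herpud1: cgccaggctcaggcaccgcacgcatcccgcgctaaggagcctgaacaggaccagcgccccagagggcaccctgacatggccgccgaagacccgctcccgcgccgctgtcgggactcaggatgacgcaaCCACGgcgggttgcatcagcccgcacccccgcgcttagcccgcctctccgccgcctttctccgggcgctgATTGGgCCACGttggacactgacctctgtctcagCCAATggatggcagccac
Derl3: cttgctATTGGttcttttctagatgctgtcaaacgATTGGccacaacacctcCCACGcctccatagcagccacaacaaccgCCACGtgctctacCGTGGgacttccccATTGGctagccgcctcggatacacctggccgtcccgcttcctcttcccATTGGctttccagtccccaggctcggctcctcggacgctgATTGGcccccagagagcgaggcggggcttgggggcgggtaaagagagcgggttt

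The Syvn1 window held the endoplasmic reticulum stress response element (ERSE), which is CCAAT and CCACG with 9 free bases between them, from base -44 to -26 on its own strand, where -1 is the base before the start. The Derl3 window held an ERSE on the opposite strand, from -156 to -138. Herpud1 held the variant ERSE-II, which is ATTGG and CCACG with 1 free base between them, from -52 to -42. The ERSE was found in 2 of the 8 members with a RefSeq window (25%), against 39 of 32851 windows of the same length over all genes (0.119%), and ERSE-II in 1 of 8 members (12.5%) against 12 of all windows (0.0365%). Counted by gene, 14 and 8 of the 7790 genes that have a window and reached 1 CPM (reads counted per 1000000 in the library) in every library held them, or 0.180 and 0.103%. Another element of the response, UPRE (TGACGTGG), which XBP1 binds, was in none of the 8 members and in 222 of all windows (0.676%). The elements were not particular to the members. Of the further ERAD genes listed by role below, 66 had a window, and 5 held the ERSE (7.58%), 1 ERSE-II (1.52%) and 3 UPRE (4.55%). Windows run from 250 bases before to 50 after the start, both strands were searched, and Derl2 has 2 windows. Derl1 had no window in the set used, so it was not searched. The short CCACG letters, which are part of both ERSE forms, occurred in all 8 members but also in 54.1% of those 7790 genes. CCAAT, on either strand also part of both ERSE forms, occurred in 7 of 8 members, all but Edem2, against 44.2% of the 7790. A match in letters is a description and does not show that a factor binds there.

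**Figure D1:**
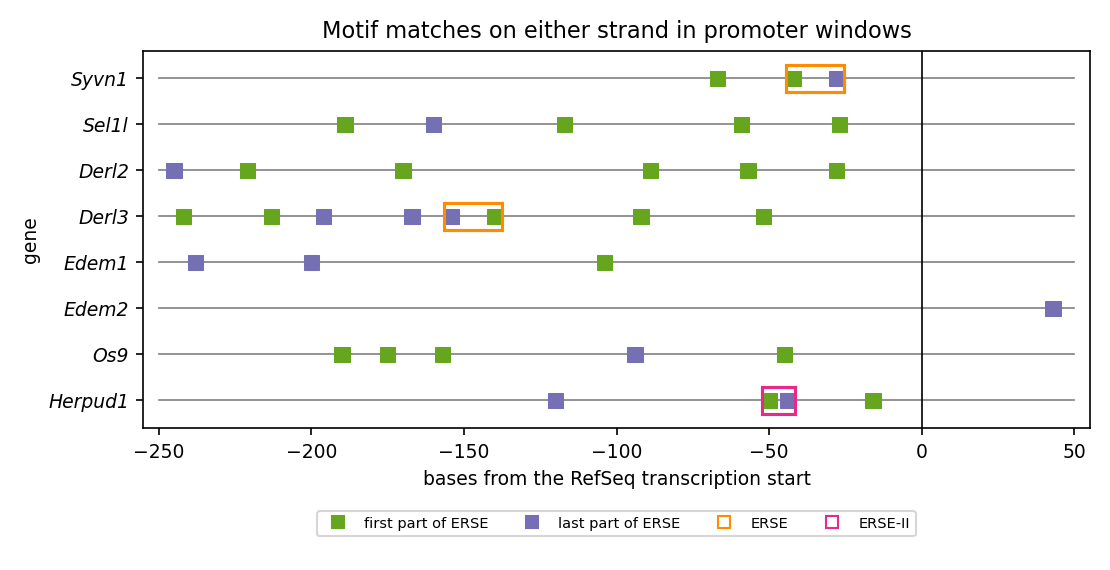
Positions of motif matches on either strand in the promoter windows of the 8 members that have one, in bases from the RefSeq start (vertical line). Filled boxes are the CCAAT (first part of ERSE) and CCACG (last part) letters and open boxes are complete elements, which are seen in Syvn1 and Derl3 (ERSE) and in Herpud1 (ERSE-II). All matches drawn for Derl2 come from 1 of its windows, and its other window held none.

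Library totals were 62303493, 45705994 and 59402218 counts for replicates 1, 2 and 3, so that a count of 0 allows up to 0.0482, 0.0656 and 0.0505 CPM, a limit that covers counting error only. Replicate 3 stood apart: a chi-square test of homogeneity on each pair, taking genes with 20 counts or more, gave 4.0 per degree of freedom for replicates 1 and 2, against 65.1 for 1 and 3 and 44.4 for 2 and 3. Of 10 plasma cell markers, 8 reached 1 CPM in all libraries, while Tnfrsf17 was lower and Cd38 had no counts, and the 10 together summed to 4504 to 4612 CPM. Markers of T and NK cells, myeloid cells and erythroid cells summed to at most 0.404 CPM in any library, with Cd3e and S100a8 at 0 counts. B cell markers summed to 1.95 to 3.11 CPM and stromal and endothelial markers to 6.12 to 6.68 CPM, and in each of these 2 lists of 5 a single gene, Ms4a1 or Pecam1, reached 1 CPM throughout. In its cell type label, replicate 1 is without the words on culture in bortezomib that the other labels carry, while its title and protocols are alike. Whether the replicates came from separate cultures is not stated in the labels, so SDs and p-values reflect a spread among these samples that may be technical.

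Of the 9 ERAD genes, 8 reached 1 CPM in every library, against 40.9% of all 24467 symbols. Derl3 was the exception. The median of the members' mean levels was 184 CPM, beside 42.7 CPM for the 10016 symbols that passed the limit. Per kilobase of exon, the median of the 9 members was 79.0 CPM, and that of the 9728 passing genes with an annotated length was 9.15 CPM. Lengths here are the union of a gene's annotated exons unless another is named.

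Syvn1 and Sel1l, the ligase and the partner that holds it in its complex, were both expressed, with more transcript of the partner. Syvn1 had 126, 123 and 126 CPM in replicates 1, 2 and 3, with a mean of 125 ± 1.75 CPM (SD, n = 3). The libraries were nearly level. Sel1l had 849, 840.2 and 728 CPM in replicates 1, 2 and 3, with a mean of 805 ± 67.6 CPM (SD, n = 3). Replicate 3 was the low one and lay outside the range of the other 2. Its log2 difference from their mean was -0.21, beside -0.19 for the trend on gene length in replicate 3 that is given below. In bulk RNA fewer cells that express a gene and less RNA per cell cannot be told apart. Per kilobase, Syvn1 averaged 25.7 ± 0.361 CPM and Sel1l 94.2 ± 7.90 CPM (SD, n = 3 each). The log2 ratio of Syvn1 to Sel1l per kilobase was -1.94, -1.96 and -1.72 in the 3 libraries, with a mean of -1.87 ± 0.14 (SD, n = 3), so Syvn1 was 3.66-fold below Sel1l. It was 4.17-fold below with the longest transcript as the length and 4.99-fold below with the coding length. Syvn1 lies on chromosome 19 at 6046576 to 6053712, plus strand, and Sel1l on chromosome 12 at 91806043 to 91849157, minus strand (GRCm38).

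Like the ratio of Syvn1 to Sel1l, each ratio given for the derlins, the EDEM genes, Os9 and Herpud1 had 1 direction in all 3 libraries. An exact permutation test that flips the signs of the log2 ratios (two-sided) returned 0.25 for every ratio, also with Benjamini-Hochberg adjustment across the 8 ratios computed, and no lower p can be had from 3 libraries.

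The 3 derlins, membrane proteins of the rhomboid family that help to move substrates out of the endoplasmic reticulum, differed widely in level. Derl1 had 297, 295 and 315 CPM in replicates 1, 2 and 3, or 302 ± 11.1 CPM (SD, n = 3). Derl2 had 75.6, 79.1 and 87.2 CPM, or 80.6 ± 5.90 CPM (SD, n = 3). Both were highest in replicate 3. Derl3 had 39, 48 and 48 counts in replicates 1, 2 and 3. These correspond to 0.626, 1.05 and 0.808 CPM, with exact Poisson 95% intervals of 0.445 to 0.856, 0.774 to 1.39 and 0.596 to 1.07 CPM. The intervals, which cover counting error only, overlapped between all libraries, and every one lay above the limit that a count of 0 allows. Derl3 was thus detected, but at a low level.

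Among derlin transcripts per kilobase, Derl1 made up 89.7 ± 0.436%, Derl2 9.88 ± 0.353% and Derl3 0.411 ± 0.110% (SD, n = 3 each). The log2 ratio of Derl2 to Derl1 per kilobase was -3.25, -3.17 and -3.13 in replicates 1, 2 and 3, a 9.07-fold lower level of Derl2. This size depends on the length taken, because the exons of Derl2 sum to 8049 bases while its longest transcript has 4369 and its coding sequence 717. Derl2 was 5.16-fold below Derl1 with the longest transcript and 3.57-fold below with the coding length. The log2 ratio of Derl3 to Derl2 per kilobase was -4.62 ± 0.36 (SD, n = 3), a 24.6-fold lower level of Derl3, which became 30.1-fold with the longest transcript and 94.8-fold with the coding length. Derl3 was therefore the lowest member under every definition of length used.

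Derl1 lies on chromosome 15 at 57869502 to 57892448, minus strand, and Derl2 on chromosome 11 at 71007164 to 71019841, minus strand. Derl3 lies on chromosome 10 at 75893413 to 75895941, plus strand, between Mif and Smarcb1, the nearest protein-coding genes on each side. Mif, a cytokine gene separated from Derl3 by 33172 bases, was at 401 ± 47.5 CPM (SD, n = 3). Smarcb1, a chromatin remodeller subunit whose nearest end lies 827 bases past that of Derl3, was at 84.8 ± 2.01 CPM (SD, n = 3). These neighbours were looked up after the level of Derl3 had been seen. Both had transcripts above 1 CPM in all 3 libraries, and the reason for the low level of Derl3 was not tested.

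**Figure D2:**
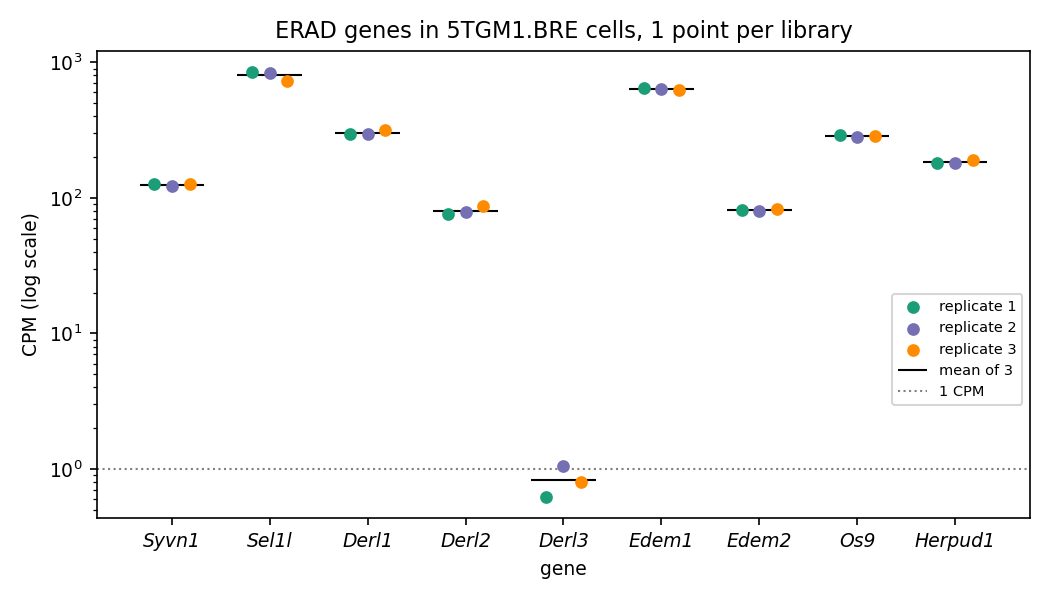
CPM of the 9 ERAD genes on a log axis, with 1 point for each library and a line at the mean of the 3. Derl3 lies around the dotted 1 CPM limit, between 0.626 and 1.05 CPM, and the other 8 genes lie between 75.6 and 849 CPM.

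Edem1, Edem2 and Os9 act in glycan marking and recognition, and Edem1 and Os9 were above Edem2. Edem1, whose product speeds the degradation of misfolded glycoproteins, had 648, 636 and 624 CPM in replicates 1, 2 and 3, or 636 ± 11.8 CPM (SD, n = 3). Edem2, whose product starts the mannose trimming, had 82.1, 80.6 and 83.0 CPM, or 81.9 ± 1.25 CPM (SD, n = 3). Os9, the lectin that delivers trimmed glycoproteins to SEL1L, had 290.0, 282 and 286 CPM, or 286 ± 3.94 CPM (SD, n = 3). For none of the 3 genes did the highest library exceed the lowest by more than 1.04-fold.

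Within the EDEM family, Edem1 exceeded Edem2 4.17-fold per kilobase, with a log2 difference of 2.06 ± 0.041 (SD, n = 3), and 2.93-fold or 6.87-fold with the longest transcript or the coding length. It exceeded Edem3, a paralog outside the 9 genes, 7.00-fold per kilobase, with a log2 difference of 2.81 ± 0.16 (SD, n = 3). Edem3 had 98.3, 95.0 and 77.8 CPM in replicates 1, 2 and 3 and was lowest in replicate 3. Os9 exceeded Erlec1, which encodes the other lectin of this step, 2.94-fold per kilobase, with a log2 difference of 1.56 ± 0.027 (SD, n = 3), and 1.70-fold with the coding length. Erlec1 itself was level at 120.3, 121 and 120.2 CPM. Edem1 lies on chromosome 6 at 108828641 to 108859356, plus strand, Edem2 on chromosome 2 at 155701677 to 155729475, minus strand, and Os9 on chromosome 10 at 127095650 to 127121131, minus strand.

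Herpud1, which encodes a membrane protein with a ubiquitin-like domain that helps to assemble the SYVN1 complex and is induced by the unfolded protein response, had 182, 182 and 189 CPM in replicates 1, 2 and 3. Its mean was 184 ± 3.95 CPM (SD, n = 3). It exceeded its paralog Herpud2 8.85-fold per kilobase, with a log2 difference of 3.15 ± 0.018 (SD, n = 3), and 3.64-fold with the coding length. Herpud2 had 52.1, 52.0 and 52.8 CPM. Herpud1 lies on chromosome 8 at 94386438 to 94395377, plus strand.

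Ordered by level per kilobase of exon, the members fell into an upper set of 5 and a middle pair, with Derl2 below these and Derl3 far below Derl2. Os9 averaged 109 CPM per kilobase, Edem1 98.6, Sel1l 94.2, Derl1 90.8 and Herpud1 79.0. These 5 stood above 93.1 to 95.2% of the passing genes with a length. Edem1 was above Sel1l in 3 of 3 libraries, by 1.05-fold on average. With the longest transcript as the length Edem1 was below Sel1l, at 105 against 128 CPM per kilobase. Sel1l was above Derl1 in 2 of 3 libraries. The ranges of both pairs overlapped between libraries, so the order of these neighbours is not resolved. Syvn1, at 25.7 CPM per kilobase, and Edem2, at 23.6, formed the middle pair, above 76.9 and 74.9% of those genes. They differed 1.08-fold, with Syvn1 higher in 3 of 3 libraries, but with the longest transcript as the length Edem2 was 1.17-fold higher than Syvn1. Derl2, at 10.0 CPM per kilobase, was near the median of passing genes, at percentile 52.5, and Derl3, at 0.415, was at percentile 3.02. With the coding length the same 5 genes came first, but their order changed and they no longer stood apart as a set. Derl1 at 401, Sel1l at 339.9 and Edem1 at 325 CPM per kilobase of coding sequence led. Herpud1 at 157 and Os9 at 142 followed, with Os9 only 1.26-fold above Derl2. Derl2, at 112, came above Syvn1 and Edem2.

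**Figure D3:**
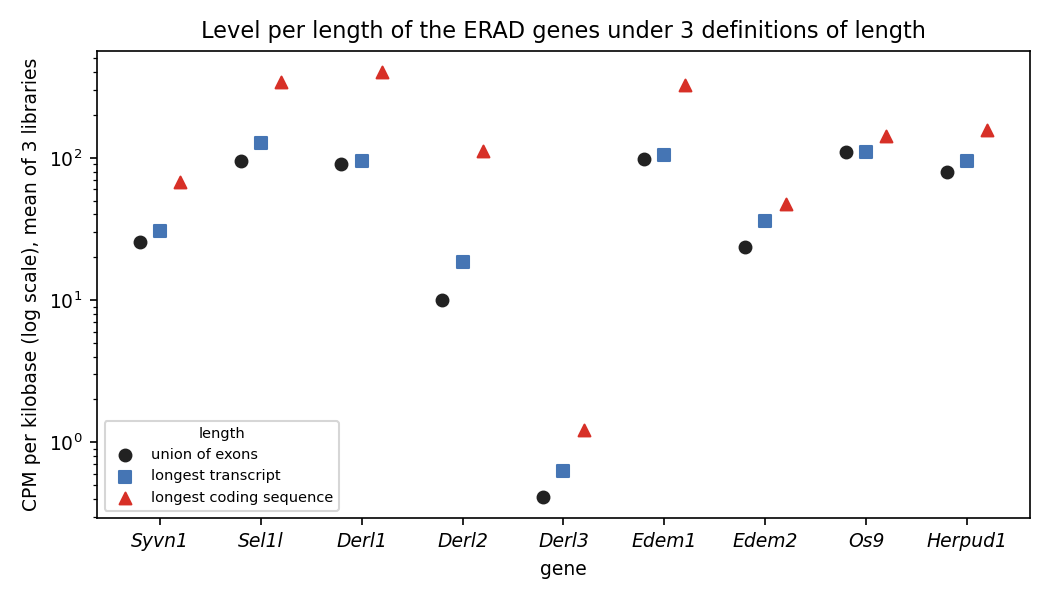
Mean CPM per kilobase over 3 libraries for the 9 ERAD genes, on a log axis, with length taken as the union of exons, the longest transcript or the longest coding sequence. Derl3 is lowest under each, and Derl2 moves most between definitions, from 10.0 to 112 CPM per kilobase.

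Counts of 5 of the 9 genes varied between libraries beyond counting noise: Sel1l, Derl1, Derl2, Os9 and Herpud1. This was judged by a chi-square test of homogeneity against library sizes scaled by edgeR's TMM method, with Benjamini-Hochberg adjustment over 11308 genes at 0.05, and the same test called 62.9% of all these genes. Adjusted p was 2.05e-104 for Sel1l, 7.22e-18 for Derl1, 2.40e-15 for Derl2, 1.50e-05 for Herpud1 and 0.0220 for Os9. Syvn1, Derl3, Edem1 and Edem2 did not pass, with adjusted p of 0.0594, 0.0791, 0.0813 and 0.0800. At this depth small differences pass. By library totals, the highest library exceeded the lowest only 1.03-fold for Os9 and 1.04-fold for Herpud1, against 1.17-fold for Sel1l and 1.15-fold for Derl2. The coefficient of variation of CPM by library totals was 1.38 to 2.14% for Os9, Syvn1, Edem2, Edem1 and Herpud1, 3.66% for Derl1, 7.32% for Derl2, 8.39% for Sel1l and 25.7% for Derl3. With TMM sizes the SD was 2.80 CPM for Syvn1, 2.12 CPM for Edem2 and 6.24 CPM for Herpud1, each over 1.5 times that by totals, and 5.65 CPM for Edem1, less than that by totals. For the 4509 genes at a mean of 50 CPM or more, its median was 6.57%, with quartiles of 3.59 and 10.3%, and 86.1% of them passed the homogeneity test.

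The variation of Sel1l, Derl1, Derl2 and Herpud1 rested on replicate 3. That of Os9 did not rest on it alone: its adjusted p was 0.00840 without replicate 1, 0.508 without replicate 2 and 0.181 without replicate 3. With replicate 3 left out, none of the 9 genes passed the homogeneity test (adjusted p of 0.118 to 0.990), against 8.54% of all genes. Before adjustment 4 of the 9 had a p under 0.05 in that test, and the share of all genes at this unadjusted limit was not taken. Without replicate 1, 7 members and 55.7% of all genes passed, and without replicate 2, 4 members and 62.4% of all genes did. Sel1l was lower in replicate 3 than the mean of the other 2 libraries by -0.21 on the log2 scale of CPM. Derl2 was higher there by 0.17, Derl1 by 0.09 and Herpud1 by 0.05, and the remaining members were within 0.04 of no difference. The median over the 9 members was 0.019, beside -0.023 over all genes tested.

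These differences stood beside a trend on gene length in replicate 3. The median log2 difference over 4 length classes of equal size was 0.18 for the shortest genes, up to 2654 bases of exon, 0.02 and -0.10 for the next classes, and -0.22 for the longest genes, of 6650 bases and more. For Sel1l, with 8555 bases, the smoothed trend was -0.19, which left a difference of -0.02. Derl2 lay in the same length class and went the other way, with a trend of -0.18 and a difference from it of 0.35. Its longest transcript is shorter than its summed exons, as given above, and which transcripts were made cannot be told apart in gene counts. With the trend removed 7 members passed the homogeneity test, with Edem1 and Syvn1 added to the 5, while 51.5% of the 10975 genes with a length passed. The part of RNA quality or library preparation in this trend was not tested.

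**Figure D4:**
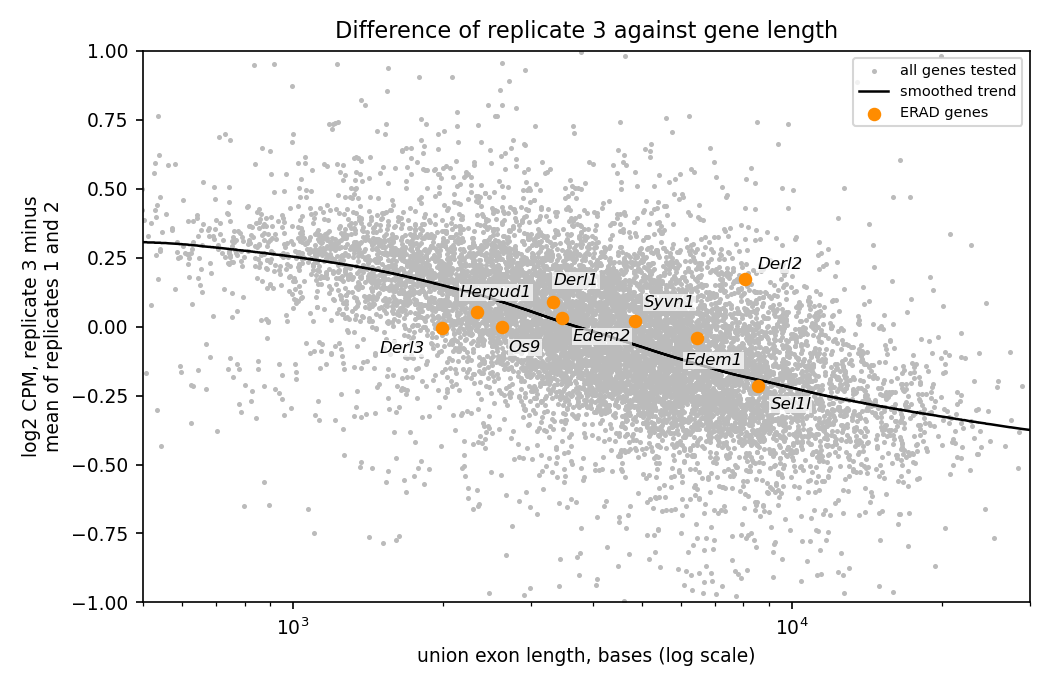
Log2 CPM of replicate 3 minus the mean of replicates 1 and 2, against union exon length on a log axis, for all genes tested (grey; genes outside the axes are not drawn) with the smoothed trend and the 9 ERAD genes (orange). Sel1l lies at the trend, at -0.21, and Derl2 lies above it, at 0.17.

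The mean profile of the 9 genes over the 3 libraries, each centred on the log2 scale, was -0.040, 0.033 and 0.008. The genes whose centred profile was nearest were Dpf1, Capn10 and Prpsap2, at root mean square distances of 0.00121, 0.00195 and 0.00210 over 3 libraries. With 3 points such likeness is weak, and 17.5% of 11308 genes were within 0.05 of the profile. Derl3, with the fewest counts, had the largest swings of the 9, at -0.372, 0.375 and -0.003, and largely set this mean. The nearest genes are therefore like a profile that rests mainly on Derl3 and its counting noise, not on the set. The members themselves lay 0.0370 to 0.275 from it.

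Nearly all other genes of the pathway were expressed too. Of 80 further ERAD genes listed by role, 76 were matched, and 71 of these reached 1 CPM in all libraries, against 40.9% of all 24467 symbols. The median of the 76 was 19.3 CPM per kilobase, beside 9.15 for the passing genes with a length. Marchf6, Selenos, Selenok and Ufd1 were not analysed here. Per kilobase, the highest were Hsp90b1, Calr and Hspa5, chaperones of the endoplasmic reticulum lumen, at 1184 ± 29.9, 638 ± 16.9 and 567 ± 1.03 CPM (SD, n = 3 each). Vcp, the ATPase that pulls substrates from the membrane, was at 110.2 ± 1.44 CPM per kilobase (SD, n = 3). With TMM sizes it did not vary beyond counting noise (adjusted p = 0.983 in the chi-square test). Dnajb9, a cochaperone of the lumen, had 97.4, 99.8 and 102 CPM in replicates 1, 2 and 3. By role, the median level per kilobase was 34.7 CPM for 6 conjugating enzymes and activators, 31.2 CPM for 13 extraction and delivery factors, 11.2 CPM for 10 ubiquitin ligases and 2.43 CPM for 5 deubiquitinases.

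The 5 pathway genes under 1 CPM were Trim13, Svip, Uggt2, Usp25 and Usp13. Trim13, a ligase of the endoplasmic reticulum membrane, had no count in any library, and such a zero over the 3 libraries together allows at most 0.0179 CPM. Svip, a small VCP-binding inhibitor of ERAD, had 0, 1 and 1 counts, and the deubiquitinase Usp13 had 1, 0 and 0. Uggt2, a paralog of the folding sensor Uggt1, had 34, 25 and 29 counts, and the deubiquitinase Usp25 had 22, 9 and 24. Uggt1 had 256, 254 and 186 CPM, so within this pair too 1 paralog was near the limit in every library.

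**Figure D5:**
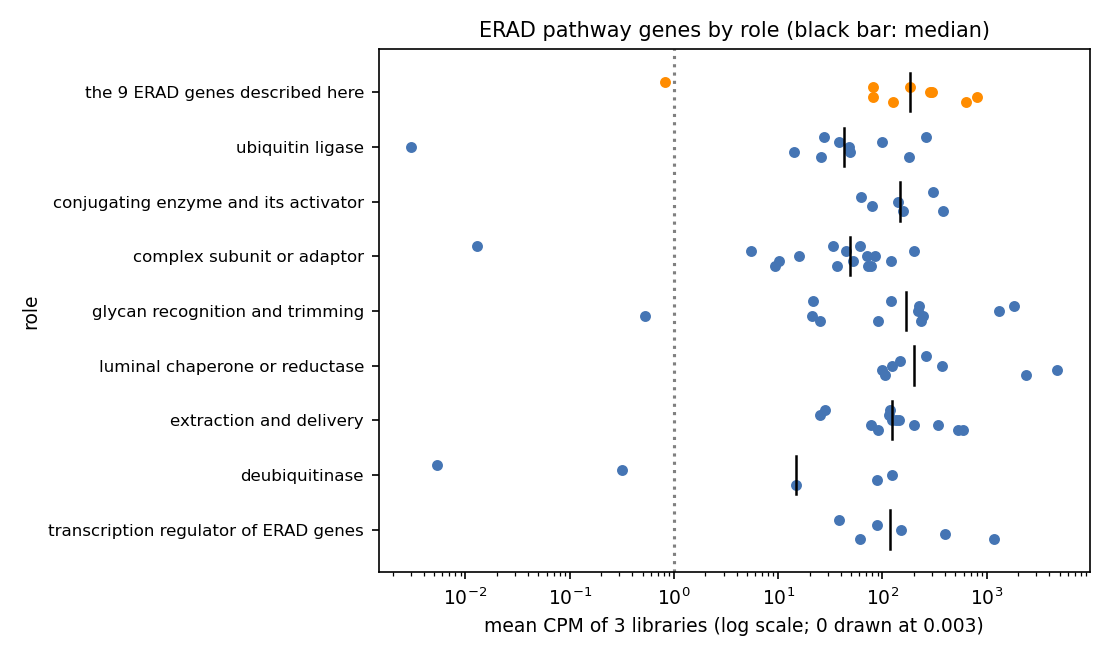
Mean CPM over 3 libraries on a log axis for the 9 ERAD genes (orange) and 76 further pathway genes by role (blue), with a black bar at the median of each role and a dotted line at 1 CPM. Derl3 and 5 of the other genes lie below 1 CPM, with Trim13 at 0.

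All 6 listed transcription regulators of ERAD genes reached 1 CPM in all libraries, against 40.9% of all 24467 symbols. Relative to the other libraries 3 were higher and 3 lower in replicate 3. Xbp1 had 1157, 1147 and 1235 CPM in replicates 1, 2 and 3 and was highest in replicate 3. Atf6, a sensor that becomes a transcription factor, had 443, 423 and 329.6 CPM. Ern1, which encodes IRE1, the sensor that splices Xbp1 RNA, had 104, 99.3 and 60.2 CPM. Replicate 3 differed from the mean of the other 2 libraries by -0.39 for Atf6 and -0.76 for Ern1 on the log2 scale, and by -0.19 and -0.57 relative to the length trend. Creb3l2, which encodes a transcription factor of the endoplasmic reticulum membrane, differed by -0.58, while Creb3 differed by 0.07 and Atf6b, the paralog of Atf6, by 0.02 with 150.4, 151 and 153 CPM in replicates 1, 2 and 3. Relative to the length trend Creb3l2 differed by -0.42, Atf6b by -0.06 and Creb3 by -0.04, so among the 6 only Xbp1, at 0.07, was higher. Adjusted p in the chi-square test was 8.31e-201 for Atf6, 1.12e-153 for Ern1 and 8.25e-82 for Xbp1. Creb3l2 (1.45e-67) and Creb3 (0.0336) also passed this test, and Atf6b (0.0525) did not. Hspa5, which encodes the chaperone BiP, was nearly level by library totals, at 2395, 2393 and 2401 CPM. It passed the chi-square test (adjusted p = 5.00e-12), which used TMM sizes in place of totals. Those sizes were 1.008, 1.006 and 0.986 times the totals of replicates 1, 2 and 3, so the call for Hspa5 depends on the scaling. Over the 73 pathway genes tested, 53 varied beyond counting noise (72.6%). The same test called 62.9% of all genes and 86.1% of genes at a mean of 50 CPM or more, and the median pathway gene had 90.1 CPM. In replicate 3, 44 of the 73 were lower and 29 higher, against 6059 lower and 5249 higher over all genes tested. The median difference was -0.063, against -0.023 over all genes. Relative to the length trend, these medians were -0.014 and -0.002.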

How the data were processed

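The authors deposited 1 table of raw counts per gene symbol for each sample, with no header. Per the submitters' processing notes, bcl2fastq, cutadapt 4.2 and STAR were used with the mouse build mm10. Which counting program, annotation and strand setting were used is not given in the sources used here. Without strand, reads of overlapping genes cannot be told apart: exons of Derl2 overlap those of Mis12 (2.9% of its length) and exons of Syvn1 those of Mrpl49 (1.9%), and the other 7 members overlap no annotated gene.

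CPM is the count per 1000000 counts of its library. Lengths and positions came from GENCODE M21 (GRCm38), and promoters from RefSeq (GRCm38.p6). Genes passing edgeR's filterByExpr (11308) entered the chi-square test, which takes counts as independent, so PCR copies inflate it. The length trend was smoothed by lowess with a span of 0.3. The text names all members, fixed partner genes (1 of which is not reported here), Vcp, Xbp1, Atf6, Ern1, Hspa5 and Dnajb9, and of the pathway list the 3 highest per kilobase and those under 1 CPM; Uggt1, Atf6b, Creb3 and Creb3l2 were added after their values were seen. Members and lists were chosen with earlier results of these data known. Alternatives were RLE scaling, DESeq2 dispersions, no filter, other limits, other lengths, 1 added count and leaving out each replicate. R 4.3.3, edgeR 4.0.16, DESeq2 1.42.0, Python 3.11.15, pandas 2.3.3 and SciPy 1.17.1 were used.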

Additional observations from a re-analysis of the deposited data

How the results depend on the processing

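Direction held for every ratio given in the report under every length, with 1 count added and with each replicate left out. The coding length was added after seeing the data. Of the 9 genes, 8 passed the detection limit with TMM or RLE sizes, at 5 CPM and without any 1 replicate, and all 9 passed at 0.5 CPM. The number varying beyond counting noise was 5 as given (62.9% of all genes tested), 6 with RLE sizes (Edem1 added; 62.8%), 5 with library totals (Edem1 in place of Os9; 62.2%), 5 with no filter on low counts (43.0%) and 7 with the length trend removed (51.5%). Leaving out 1 replicate gave 0 to 7, with 0 without replicate 3. The calls for Os9 and Edem1 thus depended on the scaling. edgeR's tagwise biological coefficient of variation, which borrows from other genes, was 6.84 to 8.56% for the 8 expressed genes and 15.8% for Derl3, against 0.740 to 8.02% and 20.8% by DESeq2's gene-wise estimate. No paired analysis was possible because there is 1 group. The few counts of Derl3 limit what can be said of its spread.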
